A study of Mus musculus with 6 samples.

Results

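The peaks described here are the regions called by ChIP-seq for Gli3 in 2 tissues of the mouse embryo, the whole face and the mandibular prominence (MNP), and the comparison asks which regions the lists share. The whole face list held 5752 peaks and the MNP list 5427, or 11179 of the 70762 peaks of the series, the rest being Hand2 peaks of the MNP. A peak was classed as shared when at least 1 bp overlapped a peak of the other list, and as face-only or MNP-only otherwise. By this rule 2162 whole face peaks were shared and 3590 were face-only, and 2130 MNP peaks were shared and 3297 were MNP-only.

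Both groups were CD1 embryos with the genotype Gli3 3XFlagbio, in which the endogenous *Gli3* gene carries a FLAG tag, and both were labelled embryonic day 11.5 (the series description has E10.5). Each group had 2 replicates, each made from pooled tissue of several embryos, fixed in 1% formaldehyde for 20 min and precipitated with the anti-FLAG M2 antibody. Tissue of untagged wild-type embryos served as the mock ChIP. The whole face is made up of the frontonasal, maxillary and mandibular prominences, so it includes the MNP, and the 2 tissues are not exclusive of each other. Each tissue has 1 merged list of positions with no score, so there was no test over replicates. The intervals given are 95% Wilson intervals for a share and 95% Newcombe intervals for a difference of shares, and both cover counting error only. Read depth was not analysed here, and a region missing from a list cannot be told apart from a region that was bound below the threshold of the peak caller.

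Gli3 is a zinc finger TF of the Hedgehog (Hh) pathway. Hh ligands bind the receptor Ptch1, which releases Smo, and the signal decides whether Gli3 is cut to a repressor or kept as a full-length protein. Gli TFs bind the motif GACCACCC, the canonical Gli binding motif (cGBM), and *Ptch1*, *Gli1* and *Hhip* are direct targets in most tissues that respond to Hh. In the face, Hh signals pattern the neural crest-derived mesenchyme of the prominences.

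The sequences below, read from the GRCm38 assembly (mm10), show what the classes look like at single sites. Capitals mark an exact cGBM on either strand or an exact arm of the RE1 element (CAGCACC, the left arm, and GGACAGC, the right arm, on either strand), the site of the neuronal gene repressor REST. The first pair are shared whole face peaks and each holds 1 cGBM. The peak at chr4:114821844-114822045 lies in an intron of *Gm12830*, 222 bp from the start of that gene, so that it is a promoter peak of *Gm12830* by the 1 kb rule used here, and 86.9 kb from the start of the forkhead gene *Foxd2*. The *Ptch1* peak at chr13:63566342-63566545 is intronic, 7155 bp from the gene start.
Gm12830 promoter, shared: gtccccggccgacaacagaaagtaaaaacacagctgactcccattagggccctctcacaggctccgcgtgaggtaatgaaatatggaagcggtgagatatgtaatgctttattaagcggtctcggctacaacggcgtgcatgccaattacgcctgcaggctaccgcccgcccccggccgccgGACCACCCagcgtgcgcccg
Ptch1 intron, shared: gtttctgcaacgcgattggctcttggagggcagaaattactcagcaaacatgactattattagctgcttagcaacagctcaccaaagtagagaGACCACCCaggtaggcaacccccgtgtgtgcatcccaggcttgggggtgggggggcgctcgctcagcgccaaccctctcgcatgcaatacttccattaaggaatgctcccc

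The next is a face-only peak with a cGBM. It lies at chr7:72906074-72906276, is intergenic, 469334 bp from the start of *Rgma*, and has a GC content of 41.4%, 1 cGBM and 1 CpG dinucleotide.
Rgma locus, face-only: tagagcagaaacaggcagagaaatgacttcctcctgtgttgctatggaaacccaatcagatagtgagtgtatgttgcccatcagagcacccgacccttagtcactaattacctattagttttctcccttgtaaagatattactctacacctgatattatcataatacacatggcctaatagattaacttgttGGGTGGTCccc

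The last 3 come from MNP-only peaks. The stretch at chr2:136714288-136714407 lies in an intron of *Snap25*, a synaptic vesicle fusion gene. Its peak is 843 bp from the gene start, so that it is a promoter peak by the 1 kb rule. The stretch at chr19:4989110-4989229 lies in an intron of *Npas4*, a neuronal activity gene, in a peak 1129 bp from the gene start. Each stretch holds both RE1 arms 2 bp apart and no cGBM. The last is the middle 200 bp of a peak at *Rps16*, a ribosomal protein gene, at chr7:28350874-28351073. The midpoint lies inside the gene, in an intron 321 bp from the start, and the peak is a promoter peak only by the 1 kb rule. These 200 bp hold neither motif, and have a GC content of 66.5% and 12 CpG dinucleotides.
Snap25 intron, MNP-only: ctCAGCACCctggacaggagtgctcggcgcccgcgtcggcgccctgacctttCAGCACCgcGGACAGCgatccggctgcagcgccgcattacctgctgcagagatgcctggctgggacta
Npas4 intron, MNP-only: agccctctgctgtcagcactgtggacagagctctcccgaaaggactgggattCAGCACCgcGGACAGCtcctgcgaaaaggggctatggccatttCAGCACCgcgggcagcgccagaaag
Rps16 promoter, MNP-only: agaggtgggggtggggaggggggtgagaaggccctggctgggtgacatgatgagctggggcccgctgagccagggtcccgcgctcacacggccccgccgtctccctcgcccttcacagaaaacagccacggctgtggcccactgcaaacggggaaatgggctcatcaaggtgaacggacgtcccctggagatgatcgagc

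The overlaps were mostly 1 to 1 and not marginal. Of the 2162 overlapping pairs, 1467 whole face peaks (67.9%) lay wholly inside the MNP peak, 98.4% were covered by at least 50%, and 3 pairs shared under 20 bp. Of the shared MNP peaks 2100 held 1 whole face peak, 28 held 2 and 2 held 3. Those with 3 were an intronic region of *Ptch1* (chr13:63562544-63567174) and a region at *Fcgr3* (chr1:171063664-171066447), an Fc receptor gene. Few unshared peaks were near misses. Only 65 of the face-only peaks (1.81%) lay within 500 bp of an MNP peak, and 77 of the MNP-only peaks (2.34%) lay within 500 bp of a whole face peak. The median gap to the other list was 113 kb for face-only and 108 kb for MNP-only peaks.

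The midpoints of the lists were offset in 1 direction. In the 844 pairs with an MNP peak of up to 400 bp, the MNP midpoint was at the higher coordinate in 89.9%, with a median of 41.5 bp. The position of the cGBM within the peaks was off center in the whole face list and not in the MNP list. Of the matches within 100 bp of the midpoint, 80.2% in shared and 76.4% in face-only whole face peaks lay on the side of higher coordinates, at a median of 32.5 and 33 bp. In shared MNP peaks the share was 48.4%, at a median of -1 bp. The offset of the whole face list held for matches on either strand (35.5 bp forward and 30.5 bp reverse in shared peaks). It was small beside the 200 bp searched for motifs, and its cause was not tested.

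Whether a whole face peak was shared went with the number in its entry name. Each entry carries the number of every call that was merged into it, from each replicate over input and over mock. The sources used here do not say what orders these numbers. They did not follow position (Spearman's rho -0.01 for replicate 1 over input and 0.01 for replicate 2 over input, across 5752 entries), yet the orders in the replicates were alike (rho 0.78 over input), and the calls over mock and over input of 1 replicate were nearly the same order (rho 0.98 and 0.99). These are descriptions over entries that share tissue and genome, not tests. The entries were put into 10 groups of equal size by number (deciles). In the lowest decile of replicate 1, 94.3% of the entries overlapped an MNP peak (92.1 to 95.9%). The share was 73.9% in the next decile, 57.6% in the one after, 29.6% in decile 5 and 7.81% in the last (5.89 to 10.3%). Replicate 2 gave 93.9% in the lowest decile, 31.7% in decile 5 and 7.64% in the last. The share was lower in each decile than in the one before it, in both replicates.

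**Figure D1:**
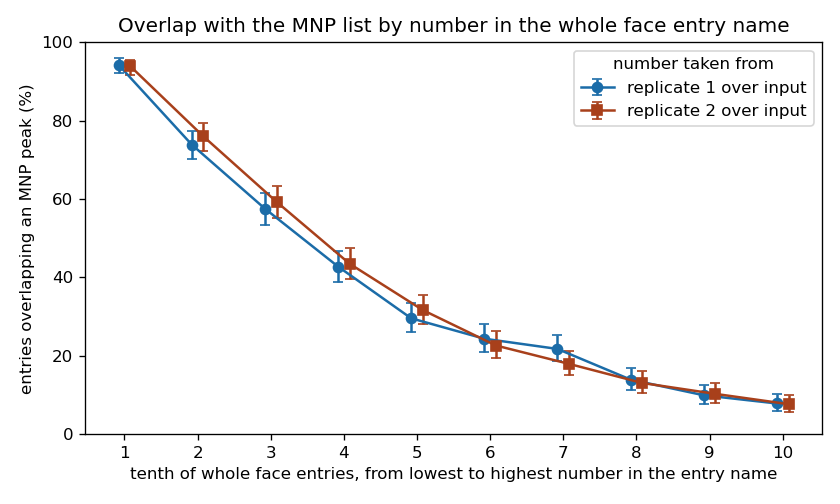
Percent of whole face entries that overlap an MNP peak (y axis), by decile of the number in the entry name from lowest to highest (x axis), for the number of each replicate over input; points are shares and bars 95% Wilson intervals. Both replicates run from about the same top, 94.3 and 93.9%, to 7.81 and 7.64% in the last decile.

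The entries with the lowest numbers were nearly all shared, and those at Hh genes were among them. Ordered by the higher of the 2 replicates' numbers over input, the first 100 entries were all shared, and 199 of the first 200. The *Gm12830* promoter peak printed above had the numbers 1 and 2 in replicates 1 and 2, the *Ptch1* intron 5 and 8, and the *Gli1* promoter (chr10:127341509-127341711, in the 5' UTR) 7 and 35. *Park7*, a gene of oxidative stress response, had a promoter peak with 4 and 3, and *Rab34*, a ciliary trafficking gene, had an intronic peak with 8 and 6, 1020 bp from its start. Among the lowest-numbered face-only peaks were some that lay far from the transcription factor genes *Sox11* (chr12:27115462-27115684, 209 and 406, 227001 bp away) and *Sox4* (chr13:28664473-28664680, 262 and 515, 289137 bp away), and at the promoter of *App*, the amyloid precursor gene (595 and 431). None of these 3 face-only peaks held a cGBM. The lowest-numbered peaks were listed after their values were seen.

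The numbers moved with other features too, so the classes were also compared within deciles. Shared whole face peaks lay at a promoter 17.2 points more often than face-only peaks when pooled, and 22.4 and 18.3 points more often within deciles of the numbers of replicate 1 and 2. The difference had the same sign in 10 of 10 deciles for both. For a cGBM anywhere in the peak the pooled difference of 6.14 points was 2.63 and 4.56 points within deciles, and shared peaks were higher in 4 and 6 of the 10 deciles. The difference in cGBM share between shared and face-only peaks was thus smaller within deciles of both replicates, and the promoter difference was not.

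Face peaks were narrow in both classes, and MNP peaks were wider where they were unshared, except at promoters. The median width was 220 bp in shared and 223 bp in face-only whole face peaks, 464 bp in shared MNP peaks and 670 bp in MNP-only peaks, with quartiles of 458 and 969 bp in the last. Within 1 kb of a gene start the medians were 755 bp in shared MNP and 700 bp in MNP-only peaks, and elsewhere 391.5 and 555 bp. All whole face peaks lay between 200 and 903 bp, and MNP peaks between 154 and 6844 bp. Each MNP entry was made of more sub-peaks where it was unshared, 2.08 against 1.57 on average from replicate 1 and 1.30 against 1.18 from replicate 2. The median GC content was 55.0% in shared and 49.4% in face-only whole face peaks, 54.8% in shared MNP peaks and 65.2% in MNP-only peaks. A CpG ratio (observed over expected) above 0.6 was found in 85.6% of MNP-only peaks, against 35.4% of shared MNP, 33.8% of shared whole face and 15.8% of face-only peaks. Unshared peaks of the 2 tissues thus departed from the shared peaks in opposite directions in GC content. Over 50% of the bases were repeat-masked in 4.81% of shared whole face, 5.35% of face-only, 4.18% of shared MNP and 2.82% of MNP-only peaks.

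**Figure D2:**
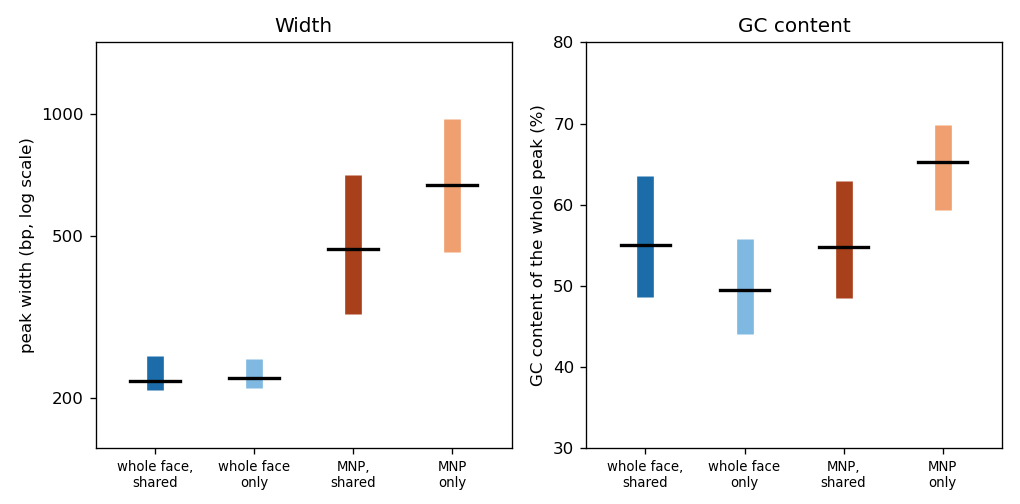
Width in bp on a log axis (left) and GC content in percent (right) of the peaks of each class; thick bars run from the lower to the upper quartile and black lines mark the median. MNP-only peaks have the highest medians in both panels, 670 bp and 65.2%, and face-only peaks the lowest GC content, 49.4%.

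The classes also separated by their distance to a gene start. A midpoint within 1 kb of the start of a protein-coding gene, called a promoter peak here, was found for 73.6% of MNP-only peaks (72.1 to 75.1%) and 12.4% of face-only peaks (11.3 to 13.5%), a difference of 61.3 points (59.4 to 63.1). Shared peaks lay between, at 29.6% in the whole face and 30.05% in the MNP. The median distance was 394 bp for MNP-only, 16798.5 bp for shared whole face, 17352 bp for shared MNP and 43418.5 bp for face-only peaks. Over 100 kb from any start lay 29.9% of face-only but 4.34% of MNP-only peaks. The gene body told the same: the midpoint was in a 5' UTR in 23.2% and in coding sequence in 15.9% of MNP-only peaks, against 3.93% and 2.45% of face-only peaks, while 17.5% and 50.8% were intergenic.

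**Figure D3:**
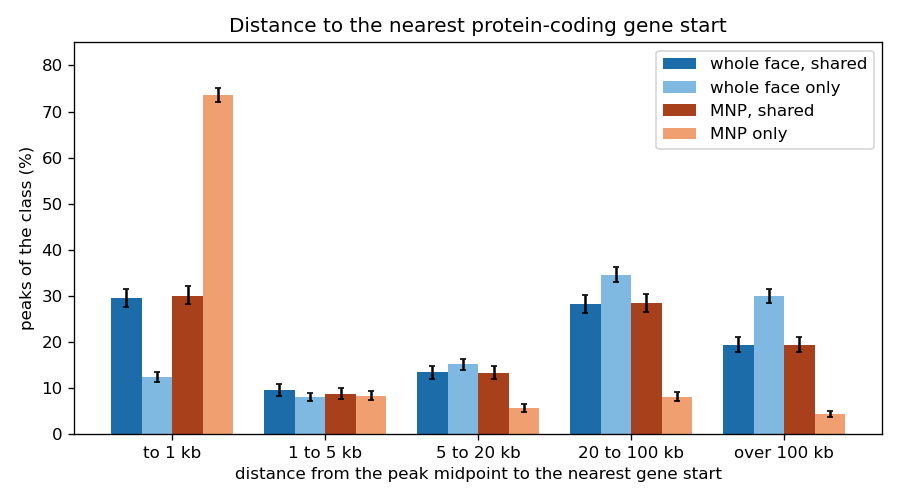
Percent of the peaks of each class (y axis) by distance from the midpoint to the nearest protein-coding gene start (x axis); bars are shares with 95% Wilson intervals. MNP-only peaks pile up within 1 kb (73.6%), face-only peaks beyond 20 kb.

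The same split can be read the other way. Of the 2359 MNP peaks away from promoters 63.2% were shared (61.2 to 65.1%), but of the 3068 at promoters 20.9% were (19.5 to 22.3%). In the whole face the order was opposite, with 639 of 1083 promoter peaks (56.0 to 61.9%) and 32.6% of 4669 other peaks shared. Width went with the shared portion in opposite directions at promoters and elsewhere. In 5 groups of MNP peaks from narrow to wide, the shared portion of the other peaks was 72.9, 73.4, 63.3, 49.4 and 25.2%, and that of promoter peaks was 14.8 (10.97 to 19.6%), 19.4, 20.4, 19.3 and 25.7% (22.8 to 28.9%). By gene, 1175 protein-coding genes (5.36% of 21924) had a whole face promoter peak and 3382 (15.4%) an MNP promoter peak. These lists had 724 genes in common, 61.6% of the first and 21.4% of the second.

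The cGBM was found in both shared classes and in face-only peaks, and rarely in MNP-only peaks. So that wide and narrow peaks were searched over the same length, it was counted in the middle 200 bp. That window is most of a typical whole face peak but a smaller part of a typical MNP peak, and counts over whole peaks follow below. In the window the cGBM was present in 21.3% of shared whole face (19.6 to 23.1%), 16.2% of face-only (14.99 to 17.4%), 18.7% of shared MNP (17.1 to 20.4%) and 1.61% of MNP-only peaks (1.23 to 2.1%). MNP-only peaks were lower than face-only peaks both at promoters (1.07% against 9.68%, a difference of -8.61 points, -11.7 to -6.15) and elsewhere (3.11% against 17.1%, a difference of -14.0 points, -15.6 to -12.1). The background in the same kind of window was 0.5% over all gene starts and 0.4% in windows 2 kb to either side of face-only peaks away from promoters. MNP-only promoter peaks, at 1.07% (0.732 to 1.56%), lay above all gene starts (0.391 to 0.574%) and above their own windows 2 kb away (0.309%, 0.188 to 0.510%). Of the 452 MNP peaks with a cGBM in the middle 88.3% were shared (84.98 to 90.9%), and of the 4975 without it 34.8%. In the whole face these shares were 44.3% and 36.1%.

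Over whole peaks of any width the cGBM was in 23.6% of shared whole face, 17.5% of face-only, 27.1% of shared MNP and 4.43% of MNP-only peaks. MNP-only peaks were lower than shared MNP peaks at each width. In peaks of up to 400 bp the cGBM was in 28.1% of shared MNP and 3.87% of MNP-only peaks, and over 800 bp in 24.8% and 5.97%. Inside shared MNP peaks the motif kept to the stretch that the whole face list also held. That stretch had 39.7% of the bases and 87.6% of the 620 cGBM matches (84.8 to 89.9%), or 1.09 per kb against 0.102 per kb outside it. In each class but MNP-only about the same portion of matches within 400 bp lay within 50 bp of the midpoint, 49.4% in shared whole face, 50.9% in face-only and 49.8% in shared MNP peaks. It was 27.0% of 137 matches in MNP-only peaks.

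**Figure D4:**
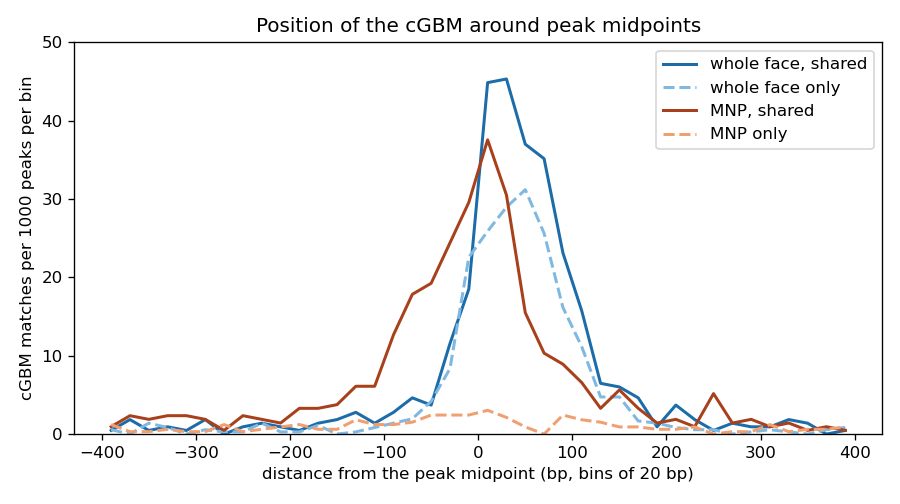
Number of cGBM matches per 1000 peaks in bins of 20 bp (y axis) by signed distance from the peak midpoint in bp along the reference (x axis), for each class. Shared whole face peaks reach 45.3 per 1000 in the highest bin, face-only peaks 31.2, shared MNP peaks 37.6 and MNP-only peaks 3.04, and both whole face curves are shifted toward higher coordinates.

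In the motif GACC, any base, CCC the variable base told the classes apart as well. A, the canonical base, made up 66.6% of matches in the middle of shared whole face peaks, 69.9% in face-only and 66.0% in shared MNP peaks, with T, the divergent form (dGBM), at 19.8, 21.5 and 21.6%. In the middle of MNP-only peaks A made up 33.0% (26.5 to 40.1%) and T 26.3% of 179 matches, and over the whole of these peaks A was at 24.5%, T at 23.6%, G at 25.6% and C at 26.3% of 640 matches. The exact dGBM, GACCTCCC, was in the middle of 5.09% of face-only and 1.38% of MNP-only peaks away from promoters, a difference of -3.70 points (-4.72 to -2.46). Its core CCTCC, which the paper took as enough for a dGBM in peaks without a cGBM, went the other way. Away from promoters the core was in the middle of 61.3% of MNP-only and 55.5% of face-only peaks, a difference of 5.804 points (2.096 to 9.431). Windows 2 kb away had the core in 42.5 and 43.9%. At promoters the core was in 76.8 and 74.1%, a difference of 2.67 points (-1.55 to 7.24).

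MNP-only peaks away from promoters carried another motif. Both RE1 arms at their canonical spacing of 2 bp, with up to 2 of the 14 letters changed, were in the middle of 91 of 869 such peaks, or 10.5% (8.61 to 12.7%). They were in 18 of 3146 face-only peaks (0.572%), 0.604% of shared MNP peaks and 0.591% of shared whole face peaks. In windows 2 kb away they were in 0 of 1738 around these MNP-only peaks, where the Wilson interval reaches 0.221%, and in 0.302% of 6292 around the face-only peaks. The difference from face-only peaks was 9.90 points (8.01 to 12.1). Exact matches were in 28 of the 869 peaks and 1 of the 3146. At promoters 1.65% of MNP-only and 0.676% of face-only peaks had the element, a difference of 0.97 points whose interval included 0 (-0.39 to 1.71). The motif was chosen with earlier counts of these peaks in view. Over all peaks 131 MNP-only peaks held it, 36 of them with an exact match. Those nearest to exact matches included *Snap25* and *Chgb* (secretory granule protein), both with promoter peaks, 843 and 550 bp from their starts. They also included *Kcnd3* (a potassium channel, 176876 bp) and *Cacng4* (a calcium channel subunit, 22862 bp). Others were genes with no role particular to neurons, such as *Slc2a8* (a sugar transporter, 36165 bp) and *Ythdf1* (a reader of RNA methylation, 26449 bp). These examples were picked with their values in view. The kinds of gene near the element were not tested.

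Other motifs also differed between the classes. Away from promoters the Hand-type E-box CAGATG was in 23.3% of face-only and 23.0% of shared whole face peaks, a difference of -0.28 points (-2.83 to 2.33), and in 9.21% of MNP-only peaks. The windows around face-only peaks had it in 14.7%, and those around MNP-only peaks in 14.3%. The homeodomain core TAATTA was in 10.2% of face-only, 7.03% of shared whole face and 2.65% of MNP-only peaks away from promoters, with 5.8% in the windows around face-only peaks. Among the motifs searched away from promoters, only TAATTA and CANNTG were higher in face-only than shared whole face peaks with intervals clear of 0. Shared minus face-only was -3.15 points (-4.76 to -1.43) for TAATTA and -3.35 points (-6.15 to -0.59) for the E-box CANNTG. The GC-rich AP-2 core GCCNNNGGC was in 31.6% of MNP-only and 19.4% of face-only promoter peaks, against 15.6% of all gene starts. CCAAT, a core promoter element, was in 8.61% of MNP-only and 19.1% of face-only promoter peaks, against 28.1% of all gene starts. The GC content of these peaks moves with both, and its part was not tested.

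Each peak was given the 2 protein-coding genes whose starts flank its midpoint. By this rule 14.5% of the 21924 genes lay next to a shared peak (taken from the whole face list), 20.1% next to a face-only peak and 24.7% next to an MNP-only peak. The face-only and MNP-only sets had 1515 genes in common, 34.3% of the first and 27.9% of the second. A gene with distant neighbors has more room for a peak away from promoters. The median distance between the neighboring starts on either side of a gene was 95.1 kb over all genes. It was 303 kb for the mandibular patterning list, 558 kb for the upper face list, 315 kb for Hh-responsive genes and 318 kb for Hh receptors. For neuronal genes it was 326 kb, for blood and endothelial genes 208 kb and for epithelial genes 71.6 kb. For ribosomal protein genes it was 43.9 kb and for histone genes 10.7 kb. The part of this distance in the shares below was not tested.

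Among Hh receptors and their partners shared peaks were most numerous at *Ptch1*. *Ptch1*, the Hh receptor, had 11 shared, 4 face-only and 2 MNP-only peaks next to it. They included a shared promoter peak in the whole face (chr13:63573346-63573647, numbers 21 and 39) that lay inside a wider MNP peak (chr13:63572023-63574411), and a cGBM was in both. *Hhip*, a decoy receptor, had 3 shared and 8 face-only peaks and none in the MNP alone. The face-only peak at chr8:80056001-80056203, 1904 bp from the *Hhip* start, had the numbers 438 and 1215, and the shared peak at chr8:80314797-80315006, 257 kb away, 26 and 36 with a cGBM. *Gas1*, a co-receptor, had 3 shared peaks, each with a cGBM and 92.2 to 370 kb from its start, and an MNP-only peak 1203 bp from its start (chr13:60174844-60177481) without one. *Boc* and *Cdon*, the other co-receptors, had 2 face-only peaks each and no shared peak, and *Boc* had an MNP-only promoter peak. *Lrp2* had none. In all 4 of 7 receptor genes lay next to a shared, 6 next to a face-only and 3 next to an MNP-only peak.

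Of the 11 transducers 6 (54.5%) had an MNP promoter peak and 2 (18.2%) a whole face one. Over all genes these shares were 15.4 and 5.36%, so the lean to the MNP was not particular to the transducers. *Smo*, the signal transducer, had an MNP-only promoter peak without a cGBM (chr6:29735435-29736601) and a shared peak with a cGBM 16.5 kb from its start (chr6:29718922-29719157, numbers 114 and 141). *Evc*, *Csnk1a1* and *Gsk3b* also had a promoter peak in the MNP list alone. *Kif7*, a ciliary regulator of Gli proteins, and *Evc2* had promoter peaks in both lists. *Sufu*, the Gli inhibitor, had 3 shared and 2 face-only peaks, all in introns or between genes. Of the shared ones 1 was in a *Sufu* intron, 25.8 kb from its start. The other 2 were 103 and 105 kb from that start, and 1736 and 274 bp from the start of the neighboring gene *Trim8*. Of the 11 transduction genes 4 were next to a shared, 3 next to a face-only and 5 next to an MNP-only peak, against 14.5, 20.1 and 24.7% of all genes. The face-only and MNP-only intervals, 9.75 to 56.6% and 21.3 to 72.0%, included the shares of all genes. Of the ligands and the genes that release them, *Hhat*, the acyltransferase of Hh ligands, had 1 shared and 3 face-only peaks. *Shh* and *Scube2* each had an MNP-only peak, 150 and 94.6 kb from their starts. Both were promoter peaks of other genes, 309 bp from the start of *Rbm33* and 185 bp from that of *Dennd5a*. *Ihh*, *Dhh* and *Disp1* had none.

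The Gli genes differed from each other. *Gli1*, whose transcription follows Hh signaling, had 1 shared region, 203 bp in the whole face and 3606 bp in the MNP (chr10:127338953-127342558). The 2 cGBMs of the MNP peak lay outside the part that the whole face list called, which held none. *Gli2* and *Gli3* had no shared peak. Each had an MNP-only promoter peak (chr1:119052372-119053821 and chr13:15463331-15464584) without a cGBM, and face-only peaks 19.7 kb or more from the start.

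Genes known to respond to Hh had the highest share next to shared peaks of the lists counted, 11 of 12, against 14.5% of all genes. Next to a face-only peak lay 9 of 12, against 20.1%, and next to an MNP-only peak 5 of 12, against 24.7%. The MNP-only interval, 19.3 to 68.0%, included the share of all genes. Most are forkhead genes of facial and foregut mesenchyme. *Foxf1* had 7 shared and 5 face-only peaks, 6 of the shared ones between 147 and 245 kb from its start, all within annotated introns of *Gm20388*, a long gene model that overlaps the locus. *Foxl1* had 6 shared and 3 face-only peaks, among them a shared promoter peak (chr8:121127434-121127641). *Foxf2* had 2 shared and 1 face-only, *Foxc1* 3 shared, 5 face-only and 1 MNP-only, *Foxd2* 2 shared and 2 face-only and *Foxc2* 1 shared peak. A peak between 2 listed genes was counted for both. The *Foxc2* peak is the *Foxl1* promoter peak, 11.4 kb from the *Foxc2* start. *Foxf2* and *Foxc1* have 1 shared peak (chr13:31628291-31628507, 178 kb from the *Foxc1* start) and 1 face-only peak in common. *Foxd1* had shared peaks 19.6 and 37.1 kb from its start, 3 face-only peaks further out and an MNP-only peak 11.9 kb away. The cell cycle gene *Ccnd2* had a shared peak with a cGBM 1112 bp from its start (chr6:127153203-127153408, 69 and 91), and *Mycn* had 5 shared, 5 face-only and 2 MNP-only peaks. *Bcl2*, a survival gene, had 3 shared peaks only, and *Osr2* had none. Of the other genes the study names, *Plagl1* had 1 shared peak 56.9 kb away and *Myh6* had none. *Maf* had 2 shared peaks, 1092 and 1159 kb away in introns of *Wwox*, and 3 face-only peaks, the nearest 440 kb away.

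Mandibular and upper face patterning genes had similar counts in each class. Of 23 mandibular genes 14 lay next to a shared, 17 next to a face-only and 8 next to an MNP-only peak. Of 24 upper face genes 13, 17 and 8 did. The shared (60.9 and 54.2%) and face-only shares (73.9 and 70.8%) lay above the 14.5 and 20.1% of all genes. The MNP-only shares were 34.8% (18.8 to 55.1%) and 33.3% (17.97 to 53.3%), and both intervals included the 24.7% of all genes. Because the whole face includes the MNP, these counts cannot show a split by prominence. The class of the closest peak differed from gene to gene. *Pitx1*, *Dlx6* and *Dlx5*, homeobox genes of the lower jaw, had MNP-only peaks 348, 505 and 937 bp from their starts, whereas *Prrx1* and *Gsc*, homeobox genes of facial mesenchyme, had face-only peaks 197 and 236 bp away. Among the upper face genes *Six2* had a face-only peak 90 bp from its start, and *Meis2*, *Alx4* and *Dlx1* MNP-only peaks at 163, 856 and 1005 bp. *Prrx1* also had a shared peak 1415 bp away. None of these peaks held a cGBM.

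Lists of other cell types were next to face-only peaks as often as, or more often than, to shared and MNP-only peaks, where over all genes the MNP-only share was the highest. Of 14 blood and endothelial genes 9 lay next to a face-only, 2 next to a shared and 3 next to an MNP-only peak, with face-only peaks at *Tal1* (815 bp) and *Klf1* (1137 bp), both blood cell regulators. Of 14 epithelial genes the counts were 6, 2 and 1, with *Epcam* 9354 bp from a face-only peak. Of 18 skeletal muscle genes they were 7, 4 and 3, with *Myod1*, the muscle determination gene, 471 bp from one. Of 17 neuronal genes they were 5, 1 and 4, of 13 bone genes 4, 3 and 3, and of 12 genes of liver, a tissue not sampled, 3, 2 and 2. For cartilage they were 8, 8 and 7 of 16, and *Col2a1*, the main cartilage collagen, had a shared peak 12 bp from its start. Over all genes the face-only, shared and MNP-only shares were 20.1, 14.5 and 24.7%. With lists this short the intervals are wide. The face-only interval was 38.8 to 83.7% for blood and endothelial genes. For neuronal, bone and liver genes it was 13.3 to 53.1%, 12.7 to 57.6% and 8.89 to 53.2%, and each included the 20.1% of all genes. For epithelial, muscle and cartilage genes it began at 21.4, 20.3 and 28.0%.

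Ribosomal protein and histone genes lay next to MNP-only peaks more often than all genes did. Of 76 ribosomal protein genes 45 (59.2%, 48.0 to 69.6%) did, against 24.7% of all genes. Next to shared and face-only peaks lay 13 each (17.1%, 10.3 to 27.1%, which includes the 14.5 and 20.1% of all genes). An MNP promoter peak was found at 44 of the 76 (57.9%, against 15.4% of all genes). A whole face promoter peak was found at 3 (3.95%, against 5.36%). Of the list of Polycomb, Myc and housekeeping genes 6 of 13 had an MNP-only neighbor (23.2 to 70.9%, which includes the 24.7% of all genes), with *Ezh2* and *Actb* at 468 and 606 bp, 3 a shared and 2 a face-only one. Histone genes, a family looked at after the values were seen, were next to an MNP-only peak in 58 of 67 cases (86.6%), to a shared one in 4 and to a face-only one in 1. An MNP promoter peak was found at 60 of the 67 (89.6%) and a whole face promoter peak at 1 (1.49%), against the same 15.4 and 5.36% of all genes. Of the 5 runs of MNP peaks over histone genes, 1 had 95.2% of its 31-base stretches in other peaks of the run in the median peak, and the others had 11.7 to 32.4%.

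**Figure D5:**
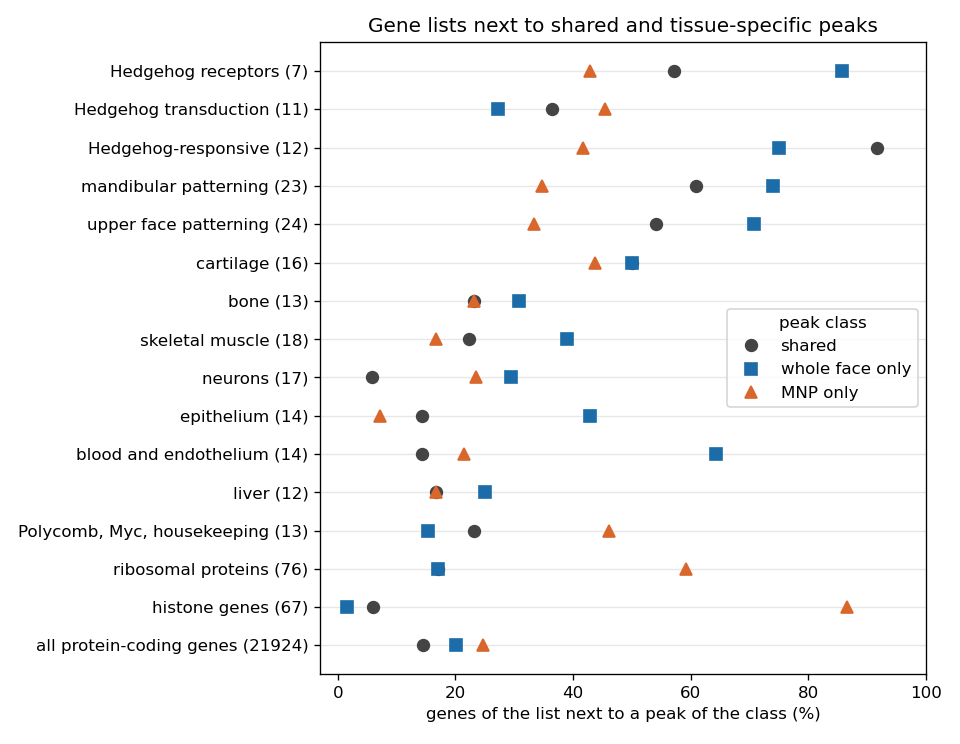
Percent of the genes of each list (x axis) that lie next to a shared, whole face only or MNP only peak, with the number of genes in brackets (y axis); for cartilage and ribosomal proteins the shared and whole face only points coincide. The Hedgehog-responsive list is highest for shared peaks (91.7%), blood and endothelium stands at 64.3% for whole face only peaks, and ribosomal proteins and histone genes at 59.2 and 86.6% for MNP only peaks, against 14.5, 20.1 and 24.7% of all genes.

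Several peaks came in runs of copied sequence. The longest was shared: 43 whole face and 38 MNP peaks at median steps of 1704 and 1717 bp between *Rhou* and *Gas8* (chr8:123538711-123623857), of which 37 were shared in each list, over 41 annotated 5S ribosomal RNA genes. None of these peaks held a cGBM, and in the median peak 100% of the 31-base stretches also occurred in other peaks of the run. Between *Ezh2* and *Pdia4* the MNP list had runs of 9 and 11 peaks at steps of 4.28 and 4.38 kb (chr6:47650764-47686568 and chr6:47739298-47778415), 2 of them shared, with a cGBM in 5 and 7 peaks and 100 and 96.7% of their 31-base stretches in common with other peaks of the run. *Ezh2* and *Pdia4* had the most adjacent MNP-only peaks of any gene, 21 and 19. A run of 17 MNP-only peaks lay at the start of chromosome 9 (chr9:3000005-3038305), where a median of 97.5% of the bases was repeat-masked. The 3 peaks of the mitochondrial genome and 17 of the 18 on chromosome Y were MNP-only, and the whole face list had 0 and 2 there. For the other classes the genes with the most adjacent peaks besides the 5S run were *Ercc6l2*, *Fancc* and *Ptch1* (12, 11 and 11 shared), which are neighbors on chromosome 13, and *Tbx3*, a T-box gene of limb and face, and *Tcf7l2*, a Wnt pathway TF (13 face-only each).

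The peaks with the most cGBMs were repeats of the motif within 1 region. The shared peak at chr17:85903915-85904248, 216 kb from *Six2*, held 8 and that at chr15:51940726-51940927 near *Rad21* held 6. Among MNP-only peaks the most were 7, at chr7:123339658-123340222 in an intron of *Arhgap17*, and 4, at chr15:10465845-10466299 in an intron of *Dnajc21*, and among face-only peaks 3, at chr11:113343799-113343998 in an intron of *Slc39a11*. The widest MNP-only peaks were 2 on the mitochondrial genome, of 6844 and 5705 bp. The widest shared MNP peaks were those of *Ptch1* (4631 bp) and *Gli1* (3606 bp).

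Hand2 peaks of the MNP touched 58.3% of shared whole face, 41.1% of face-only, 61.8% of shared MNP and 61.2% of MNP-only peaks. The median widths of these classes were 220, 223, 464 and 670 bp. A wider peak has more room to touch a Hand2 peak, no background windows were counted, and the part of width was not tested. Within deciles of the entry numbers shared whole face peaks touched a Hand2 peak 13.1 and 13.2 points more often than face-only peaks (17.2 points pooled), in 10 of 10 deciles.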

How the data were processed

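The measurements were ChIP-seq peaks for FLAG-tagged Gli3 in 2 replicates each of the whole face and the MNP. Per the methods and labels, the authors generated 1 × 75 bp reads on a NextSeq, mapped them to mm10 (GRCm38) with BWA and used bedtools to merge peaks shared between replicates, and the submitters' processing notes also name HOMER, all without versions. For these lists the peak caller is not given in the sources used. The deposited files hold peak start and end positions (bp) and merged peak names, with no score or read count, and replicates were already merged, so depth is unknown and no test over replicates was made.

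Positions were compared with each other and with the GRCm38 sequence and the GENCODE M21 annotation (21924 protein-coding gene symbols). The distance to a gene start was taken from the peak midpoint, promoter peaks lay within 1 kb, motifs were exact matches on either strand in the middle 200 bp unless stated, and background windows lay 2 kb to either side. In all 22 motifs were searched. Repeats were taken from the soft-masked assembly. The RE1 element was searched with 2 mismatches allowed. Runs are at least 6 peaks with steps of up to 20 kb. Python 3.11.15, numpy 2.4.6, pandas 2.3.3, scipy 1.17.1, pysam 0.24.0 and matplotlib 3.10.9 were used, and the overlap, motif and interval code was tested on simulated data.

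Gene lists covered Hh ligands, receptors, transducers, Gli genes and Hh-responsive genes, mandibular and upper face patterning, markers of neurons, skeletal muscle, epithelium, liver, bone, cartilage, and blood with endothelium, and Polycomb, Myc and housekeeping genes, with ribosomal protein and histone genes by symbol. Named genes are members of the Hh lists, *Foxd1*, *Plagl1*, *Myh6* and *Maf*, for every other list up to 3 genes per class with the nearest peaks, genes with the largest numbers of adjacent peaks, and peaks with the most cGBMs or the greatest width. Others were chosen after their values were seen. Some items that this rule names are not reported here. The classes, members and lists were chosen with earlier results of these data known. Alternatives were other overlap rules, widths, promoter distances, gene starts and gene assignments, and leaving out promoters or repeats.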

Additional observations from a re-analysis of the deposited data

How the results depend on the processing

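Of 77 values under an alternative, 42 stayed within the interval of the main value and 35 did not. The shared portion stayed within its interval under stricter overlap, fixed widths and without repeats for both lists. With promoter peaks left out of both lists it was 32.1% of whole face and 62.8% of MNP peaks, and with gaps of up to 500 bp allowed 40.7% of MNP peaks. With the whole face list cut to entries with the lower 50% of numbers in both replicates, chosen after seeing the data, it was 67.7% of whole face and 28.7% of MNP peaks. Promoter peaks made up 23.8, 9.94, 24.3 and 59.5% of shared whole face, face-only, shared MNP and MNP-only peaks at 500 bp, 39.1, 20.3, 38.8 and 82.0% at 5 kb, and 34.0, 15.2, 34.7 and 83.2% from all transcript starts. Counting any base within 1 kb, chosen later, gave 77.2% for MNP-only peaks. The cGBM was in 21.3, 16.2, 18.7 and 1.61% of these classes in the middle 200 bp. Over whole peaks without promoter peaks it was in 26.7% of shared whole face, 30.3% of shared MNP and 6.21% of MNP-only peaks. The median GC content without promoter peaks was 52.0, 48.3, 51.4 and 58.6%, and in the middle 200 bp 56% for shared MNP and 68.5% for MNP-only peaks. With the nearest gene start within 100 kb alone, 6.73, 9.44 and 13.4% of genes had a shared, face-only or MNP-only peak. Hand2 peaks touched 53.7% of MNP-only peaks away from promoters, also chosen later. The cause was not tested for any of these values. MNP-only peaks had the most promoter peaks, the highest GC content and the lowest cGBM share in each of these settings, while shared whole face peaks passed shared MNP peaks for the cGBM in the middle 200 bp. Entries that name both replicates were all entries, so that setting changed nothing.

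No paired analysis was possible because each tissue has 1 merged list and the results come from no test over samples. Leaving out a replicate was not run, since the entries keep only merged coordinates. Read depth is unknown, so how near an absent region came to the threshold was not analysed here. The lists also differed in width, in the form of their entry names and in midpoint, the cause was not tested, and tissue and peak calling cannot be told apart.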
